A study of Mus musculus with 16 samples.

Results

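Matrix-bound nanovesicles (MBV) were compared with vehicle in the livers of ethanol-fed mice, across all genes that were counted. The comparison takes 8 of the 16 libraries of the study: 4 EtOH+MBV libraries, from ethanol-fed mice treated with MBV, and 4 EtOH libraries, from mice on the same diet that received vehicle. The other 8 libraries, 4 PF and 4 PF+MBV, come from pair-fed control mice with vehicle and with MBV, and they entered the same model and served for comparison between the diets. Ethanol was given by the chronic-and-binge regimen of the NIAAA (National Institute on Alcohol Abuse and Alcoholism), in which a liquid ethanol diet is followed by a single large dose. Polyadenylated RNA of whole liver was sequenced, and the measure is the number of reads counted per gene. The mouse strain, age and sex, and the source, dose and route of the MBV, are not stated in the labels. The labels also leave unsaid whether each replicate is its own mouse, so the spread behind each p-value is that of these samples and may be technical.

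MBV are nanometre-sized vesicles lodged in the extracellular matrix of tissues. They carry small RNAs, lipids and cytokines, and are known for shifting macrophages away from an inflammatory state. In the alcohol-fed liver, ethanol is oxidised in hepatocytes by alcohol dehydrogenases and the cytochrome P450 Cyp2e1, which produces oxidants and engages the antioxidant programme of the transcription factor NRF2. Bacterial endotoxin from the gut reaches liver macrophages through the receptor Tlr4 with its co-receptor Cd14, which starts NF-kB signalling. Injured hepatocytes reorganise their keratin filaments, and the endothelial cells that line the sinusoids lose their specialised features.

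The 8 ethanol libraries held 15912023 to 18240144 gene counts, and between 15021 and 15711 genes had at least 1 of them. Levels below are CPM, the usual scaled unit of counts relative to library size (after TMM scaling), and changes are log2 fold changes of EtOH+MBV against EtOH with their standard errors, where 1 is a doubling (n = 4 libraries per group). Within each group replicate 1 stood apart. On the first principal component of the 8 ethanol libraries, which held 43.4% of the variance, EtOH 1 lay at -79.1 and the other EtOH libraries at -17.6 to 7.5. On the second, with 18.3%, EtOH+MBV 1 lay at -47.2. Weights that limma estimates from the fit of each library to its group were 0.178 for EtOH 1 and 0.309 for EtOH+MBV 1, against 0.740 to 1.46 for the other 6. EtOH 1 was high in interferon, macrophage and division genes and low in genes of mature hepatocytes. Lpl, the lipoprotein lipase, was at 91.3 CPM there and at 8.32 to 13.8 CPM in EtOH 2 to 4, and Stmn1, a microtubule regulator of dividing cells, at 25.6 against 2.48 to 3.84 CPM. Ppp1r3c, a glycogen-targeting phosphatase subunit, was at 3.68 against 54.5 to 66.6 CPM, and Mup3, a major urinary protein, at 93.1 against 1284 to 2209 CPM. EtOH+MBV 1 was high in Cyp7a1, which sets the rate of bile acid synthesis, at 117 CPM against 5.40 to 9.62 CPM in EtOH+MBV 2 to 4, and in Selenbp2, a selenium-binding protein, at 388 against 34.1 to 70.2 CPM. It was low in the acute phase genes Saa2, at 42.3 against 837 to 1831 CPM, and Lcn2, at 158 against 1467 to 2053 CPM. Changes on ethanol are therefore given also without EtOH 1 and without EtOH+MBV 1.

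The samples carried the signature of liver. All 16 hepatocyte markers were measured, with a summed level of 122600 to 193000 CPM in EtOH and 159200 to 176400 CPM in EtOH+MBV, and Alb, the serum albumin, was at 65660, 73270, 98070 and 77240 CPM in the EtOH libraries and at 86060, 90110, 83150 and 87320 CPM in the EtOH+MBV libraries. None of the 16 passed edgeR's test of MBV against vehicle (1 was higher at an unadjusted p under 0.05, and DESeq2 called 0), and their median log2 change was 0.09 (-0.06 without EtOH 1 and 0.10 without EtOH+MBV 1). Among all 12901 genes tested, 2.69% passed by edgeR and 2723 had an unadjusted p under 0.05. Cyp2e1, the ethanol-oxidising cytochrome, was at 1110, 4930, 6789 and 5474 CPM in the EtOH libraries and at 7271, 6152, 6810 and 6274 CPM in the EtOH+MBV libraries, and its log2 change of 0.53 did not pass (adjusted p = 0.402). EtOH 1 was the low library for Cyp2e1. Without EtOH 1 the change was 0.22, and without EtOH+MBV 1 it was 0.49, neither of which passed.

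Of 12901 genes tested, 347 passed an adjusted p of 0.05 in the quasi-likelihood test of edgeR (Benjamini-Hochberg adjustment), which is 2.69% of the genes. With MBV 160 were higher (1.24%) and 187 lower (1.45%), and 141 changed at least 2-fold, 44 of them upward and 97 downward. The median log2 change was 0.76 among the higher genes, -1.04 among the lower genes and 0.006 over all genes tested. The lower genes moved further than the higher ones, and in 131 of the 187 lower genes EtOH 1 was the highest EtOH library. It was the lowest EtOH library in 79 of the 160 higher genes, and the shares over all genes tested were not counted. Without EtOH 1, 99 of 13000 genes passed (0.762%), 48 higher and 51 lower, and 91 of the 347 were among them. Without EtOH+MBV 1, 301 of 13067 passed (2.3%), 162 higher and 139 lower, and 200 of the 347 were among them. Without both libraries 180 of 12961 passed (1.39%), with 113 of the 347. The direction of all 347 genes was kept in each of these 3 fits. These fits hold most of the libraries in which the genes were chosen, so the kept direction is not separate support. The median of the lower genes went to -0.86 without EtOH 1 and to -0.99 without EtOH+MBV 1.

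The count depended on other libraries as well. Leaving out EtOH+MBV 3 left 8 genes and leaving out EtOH 2 left 64, while 553 passed without EtOH 3 and 1169 without EtOH 4. It was 167 without EtOH+MBV 2 and 218 without EtOH+MBV 4. The model shares its spread over all 16 libraries, and replicates of the groups differed unequally. Between the counts of 2 replicates, chi-square per degree of freedom was 25.9 to 163 within EtOH and 16.6 to 107 within EtOH+MBV. It was 14.6 to 61 within PF, which overlaps both, and 8.54 to 16 within PF+MBV. Errors may therefore be too small in this comparison. When edgeR was fitted to the 8 ethanol libraries alone, 0 of 12325 genes passed, with 1679 at an unadjusted p under 0.05 and a smallest adjusted p of 0.227. On all 16 libraries 2723 genes had an unadjusted p under 0.05, and DESeq2 called 905 genes and limma voom 247.

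**Figure D1:**
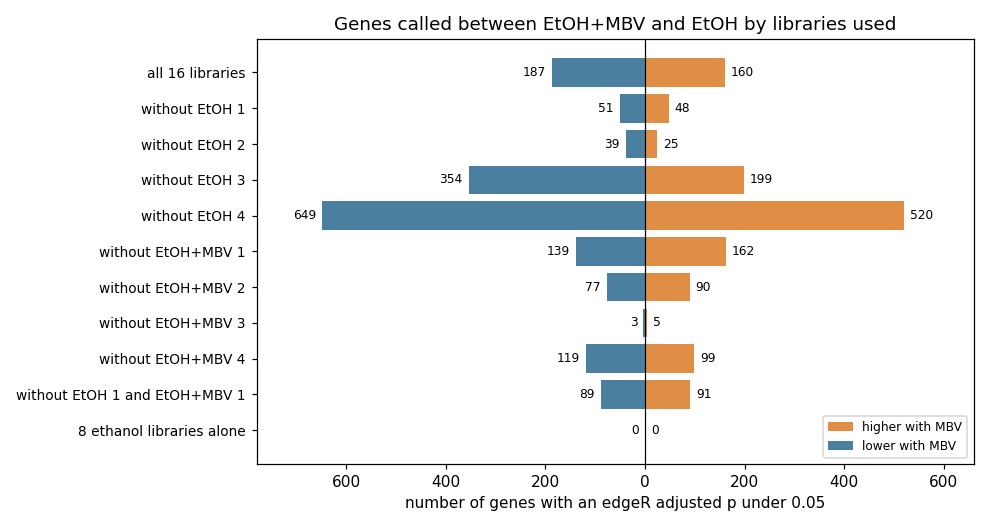
Bars give the number of genes with an edgeR adjusted p under 0.05 between EtOH+MBV and EtOH, to the right for genes higher and to the left for genes lower with MBV, for each set of libraries fitted. The count runs from 8 without EtOH+MBV 3 to 1169 without EtOH 4, and is 0 when the 8 ethanol libraries are fitted alone.

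**Figure D2:**
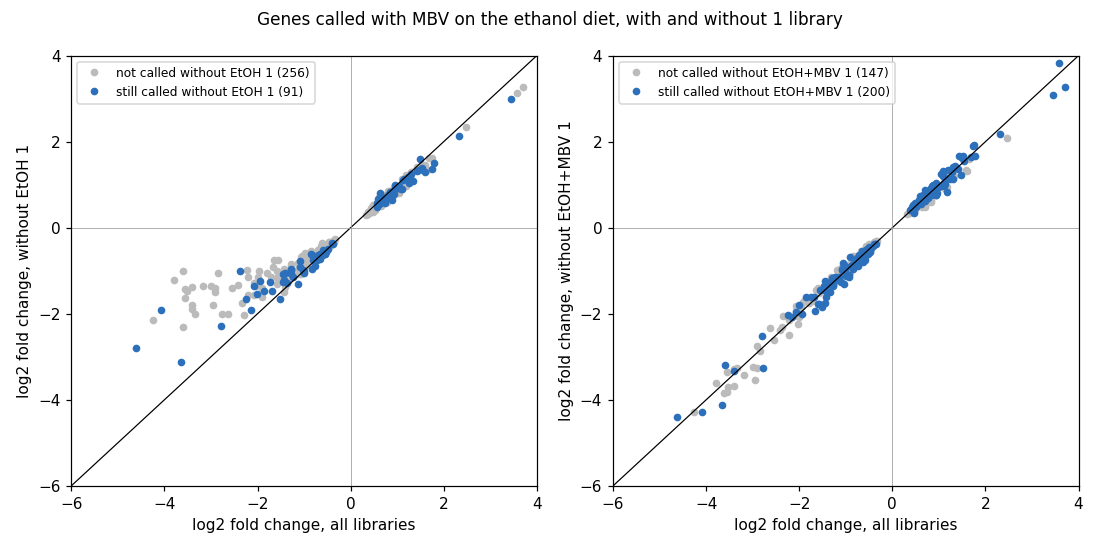
Each point is 1 of the 347 genes called with all libraries, with its log2 fold change from all libraries on the horizontal axis and from the fit without EtOH 1 (left) or without EtOH+MBV 1 (right) on the vertical axis. Many of the largest falls lie above the diagonal on the left, as they were smaller without EtOH 1, and on the right the points lie near it.

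Because of these dependences the description centres on the 85 genes, 40 higher and 45 lower, that passed with all libraries, without EtOH 1 and without EtOH+MBV 1. Of these, 71 also passed without both, and in 84 the 4 EtOH+MBV libraries and the 4 EtOH libraries did not overlap, which was so for 981 of the genes tested (7.6%). The 85 genes passed tests on these same libraries, so a lack of overlap, here or in single genes below, adds no separate support. EtOH 1 was still the highest EtOH library in 26 of the 45 lower genes and the lowest in 23 of the 40 higher genes. The PF mean was below the EtOH mean in 43 of the lower genes and above it in 39 of the higher genes. It was below the EtOH+MBV mean in 29 of the lower genes and above it in 26 of the higher genes. In the rest EtOH+MBV lay at or beyond PF, so PF levels given for single genes do not stand for all. The genes were chosen by their EtOH values, high in the lower genes and low in the higher ones. A PF mean on the other side of EtOH therefore follows in part from that choice. The shares of all genes tested with PF on either side were not counted. The 7 genes that passed whichever of the 8 libraries was left out were Kit, Clec14a, Hist3h2a and Zfp874b, which rose, and Akap12, Hspa4l and Cep85, which fell. For the other genes named below the adjusted p rose above 0.05 without EtOH+MBV 3, EtOH 2 or another single library, and the number that passed without each library is given at the end.

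Kit and Clec14a, markers of the sinusoidal endothelium, rose with MBV, while most markers of that list did not pass. Kit, the receptor of stem cell factor, which marks endothelium of the central part of the lobule as well as mast and progenitor cells, was at 1.65, 1.98, 3.02 and 2.06 CPM in EtOH 1 to 4 and at 6.42, 5.62, 5.99 and 5.15 CPM in EtOH+MBV 1 to 4. Every EtOH+MBV library lay above every EtOH library, and Kit rose 2.68-fold (log2 1.42 ± 0.20, edgeR adjusted p = 0.00516), with log2 1.31 without EtOH 1 and 1.37 without EtOH+MBV 1. Clec14a, a C-type lectin of endothelial cells, was at 4.07, 3.26, 4.57 and 5.61 CPM in EtOH 1 to 4 and at 10.2, 8.71, 10.5 and 8.54 CPM in EtOH+MBV 1 to 4, again with no overlap. It rose 2.18-fold (log2 1.12 ± 0.15, edgeR adjusted p = 0.00434), with log2 1.10 without EtOH 1 and 1.09 without EtOH+MBV 1. PF livers had 10.7 ± 0.816 CPM of Kit and 19.96 ± 2.097 CPM of Clec14a (mean ± SD, n = 4). Of 30 endothelial markers tested, 5 rose and 0 fell, with a median log2 of 0.19, where 1.24% of all genes tested rose. The log2 change was above 0 in 22 of the 30 and not in the rest. At an unadjusted p under 0.05 in edgeR, 10 were higher and 2 lower, against 2723 of all 12901 genes tested in either direction. Without EtOH 1, 2 of 30 rose (median 0.17), and without EtOH+MBV 1, 4 rose (median 0.27). The other 3 were Tek, the angiopoietin receptor (log2 0.67, 0.60 and 0.72 with all libraries, without EtOH 1 and without EtOH+MBV 1), Ehd3, an endocytic protein of sinusoidal cells (0.40, 0.34 and 0.38), and Ushbp1 (1.11, 0.90 and 1.18). None of these 3 passed without EtOH 1, with adjusted p = 0.114, 0.0973 and 0.0838. The summed level of the 30 markers was 707 to 908 CPM in EtOH, 799 to 982 CPM in EtOH+MBV and 1038 to 1168 CPM in PF, so the groups overlapped in total while Kit and Clec14a did not. In whole liver, fewer cells of a type and less RNA per cell cannot be told apart.

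Hist3h2a, Hexim1, Mepce and Med20 also rose. Hist3h2a, which encodes a histone H2A whose transcript is found outside S phase, was at 0.242, 0.407, 0.604 and 0.451 CPM in EtOH 1 to 4 and at 2.69, 2.01, 2.102 and 1.63 CPM in EtOH+MBV 1 to 4. It rose 4.998-fold (log2 2.32 ± 0.29, edgeR adjusted p = 0.00434), with log2 2.12 without EtOH 1 and 2.18 without EtOH+MBV 1, and was the largest rise among genes passing in the 3 fits at 1 CPM or more, predicted gene models and pseudogenes left aside. Hexim1, the protein that holds the elongation kinase P-TEFb inactive on the 7SK RNA, was at 10.1, 15.1, 18.3 and 25.9 CPM in EtOH 1 to 4 and at 45.4, 32.4, 33.3 and 36.5 CPM in EtOH+MBV 1 to 4. It rose 2.14-fold (log2 1.10 ± 0.20, edgeR adjusted p = 0.0201, log2 0.91 without EtOH 1 and 0.98 without EtOH+MBV 1), and the lowest EtOH library was EtOH 1. Mepce, the enzyme that caps the same 7SK RNA, was chosen after its values were seen and was at 12.1, 14.4, 11.01 and 16.3 CPM in the EtOH libraries and at 26.4, 22.97, 23.2 and 21.99 CPM in the EtOH+MBV libraries. It rose 1.76-fold (log2 0.82 ± 0.14, edgeR adjusted p = 0.0172, log2 0.77 without EtOH 1 and 0.76 without EtOH+MBV 1). Med20, a subunit of the Mediator complex that links activators to RNA polymerase II, was also chosen after its values were seen. Its log2 changes were 0.84, 0.82 and 0.89 with all libraries, without EtOH 1 and without EtOH+MBV 1.

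Zinc finger and THAP domain genes were among the named rises. Zfp874b, Zfp882 and Zbtb40 encode zinc finger proteins and Thap2 a THAP domain protein, families that bind DNA. Zfp874b was at 3.001, 3.96, 3.83 and 4.58 CPM in the EtOH libraries and at 8.5, 6.83, 7.71 and 8.04 CPM in the EtOH+MBV libraries, with no overlap, and rose 2.03-fold (log2 1.02 ± 0.14, edgeR adjusted p = 0.00516, log2 0.92 without EtOH 1 and 0.98 without EtOH+MBV 1). Zbtb40 was at 3.19, 5.003, 5.37 and 9.54 CPM in the EtOH libraries and at 12.3, 14.6, 13.2 and 14.8 CPM in the EtOH+MBV libraries, where EtOH 4 came closest to the EtOH+MBV libraries, and rose with log2 1.26, 1.05 and 1.31 in the 3 fits. Log2 was 1.53, 1.38 and 1.54 for Zfp882 and 1.34, 1.08 and 1.43 for Thap2 in the same order. Zfp874b and similar zinc finger genes have close relatives in the genome, and reads that match several places were not counted, so their levels are uncertain. Of 12 histone genes tested, 2 rose (1 without EtOH 1, 2 without EtOH+MBV 1), where 1.24% of all genes tested rose with all libraries. The list's median log2 was 0.25, 0.12 and 0.20 in these fits. The second was Hist2h2be, at 0.629, 0.6399, 0.805 and 0.516 CPM in the EtOH libraries and at 2.14, 1.004, 1.85 and 1.38 CPM in the EtOH+MBV libraries, with log2 1.30 without EtOH 1 (adjusted p = 0.0601) and 1.12 without EtOH+MBV 1 (adjusted p = 0.0483). Neat1, the nuclear RNA that builds paraspeckles, was at 174, 205, 174 and 317 CPM in EtOH 1 to 4 and at 409, 358, 854 and 868 CPM in EtOH+MBV 1 to 4. It rose 2.86-fold (log2 1.52 ± 0.30, edgeR adjusted p = 0.021), with log2 1.43 without EtOH 1 (adjusted p = 0.0542) and 1.67 without EtOH+MBV 1 (adjusted p = 0.0258). Of 11 nuclear and host-gene RNAs tested, 1 rose with all libraries, 0 without EtOH 1 and 2 without EtOH+MBV 1, the second being Snhg1 (log2 0.50, 0.53 and 0.67). The summed level of the list was 391 to 595 CPM in EtOH, 602 to 1137 CPM in EtOH+MBV and 527 to 1241 CPM in PF. Neat1 made up most of that sum in EtOH+MBV. The list's mean log2 CPM against PF overlapped between the groups, at 0.40 to 0.62 in EtOH and 0.02 to 0.75 in EtOH+MBV. Malat1, a nuclear RNA on that list, did not move with Neat1, at 133 to 220 CPM in EtOH and 134 to 162 CPM in EtOH+MBV. The part of nuclear RNA content in the rises was not tested.

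Other named rises concerned the cilium and centrosome, growth control and metabolism. Bbs10, a chaperonin-like protein needed for assembly of the BBSome of cilia, was at 0.581, 1.396, 1.54 and 2.26 CPM in the EtOH libraries and at 6.03, 3.01, 6.496 and 3.96 CPM in the EtOH+MBV libraries, and rose with log2 1.78, 1.5 and 1.66 in the 3 fits. Spice1 and Cep97, both centriole proteins, had log2 1.23, 1.17 and 1.13 and 0.96, 1.0 and 0.95. Mlst8, a subunit of the mTOR kinase complexes, was at 2.08, 2.38, 2.89 and 2.26 CPM in EtOH 1 to 4 and at 5.54, 4.42, 5.29 and 4.33 CPM in EtOH+MBV 1 to 4. It rose 2.04-fold (log2 1.03 ± 0.20, edgeR adjusted p = 0.0208, log2 0.97 without EtOH 1 and 0.97 without EtOH+MBV 1), and it overlaps Bricd5 on the opposite strand, so its reads are not certain to be its own in libraries without strand. Flcn, the folliculin that signals amino acid supply to mTOR complex 1, was chosen after its values were seen and was at 18.1, 24.7, 17.5 and 21.1 CPM in the EtOH libraries and at 30.8, 29, 33.7 and 38.3 CPM in the EtOH+MBV libraries, with log2 0.70, 0.65 and 0.73. Acpp, a prostatic-type acid phosphatase, had the lowest value in EtOH 1 by far, at 0.823, 6.51, 10.8 and 7.09 CPM in the EtOH libraries and at 13.4, 21.5, 30.2 and 18.5 CPM in the EtOH+MBV libraries, and rose with log2 1.75, 1.37 and 1.91. PF had 5.84 ± 1.12 CPM of Acpp, so this rise led away from PF. Aasdh, an acyl-CoA synthetase-like enzyme, and Armc6, an armadillo repeat protein, had log2 0.95, 0.91 and 0.81 and 1.14, 1.12 and 1.02, and Armc6 overlaps Sugp2 on the opposite strand.

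**Figure D3:**
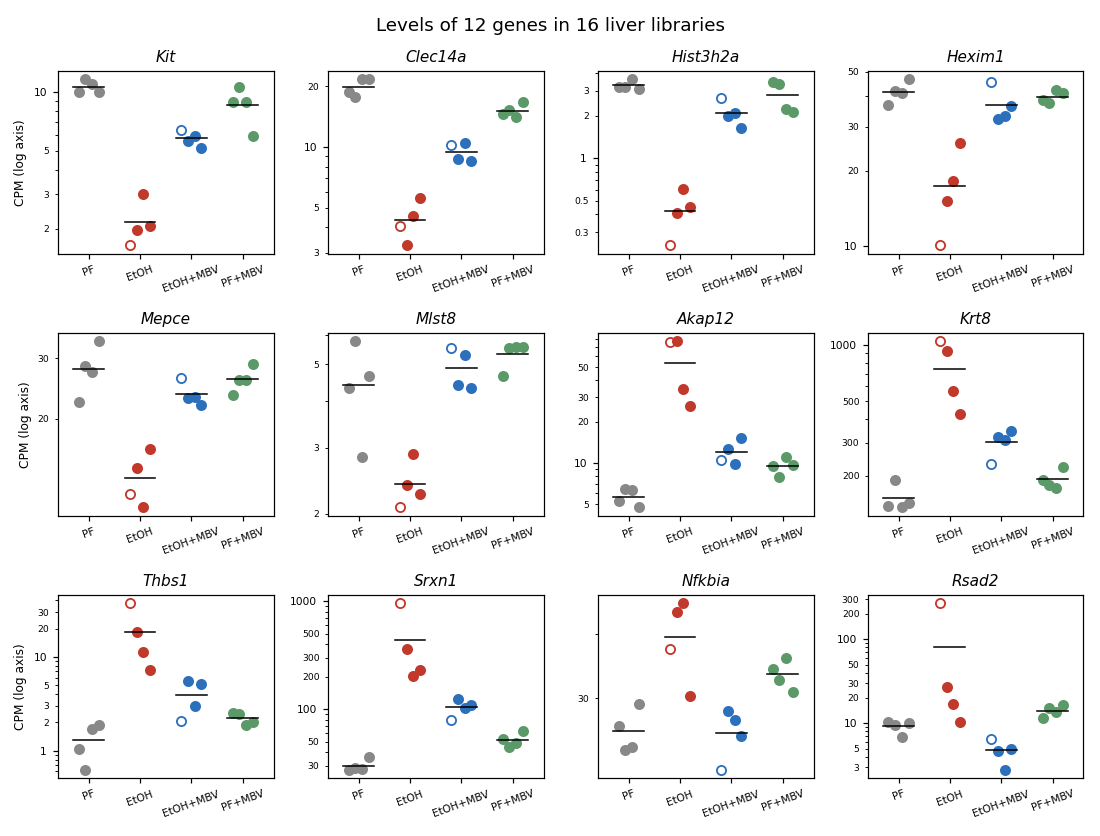
CPM on log axes of 12 genes in the 16 libraries, by group, with a line at each group's mean and open symbols for EtOH 1 and EtOH+MBV 1. In the first 6 genes all EtOH+MBV libraries lie above all EtOH libraries, in the last 6 they lie below, and EtOH 1 is far above the other EtOH libraries in Srxn1 and Rsad2.

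Falls with MBV included genes of the cytoskeleton and of cell shape. Akap12, a scaffold that anchors protein kinases A and C at the cell cortex, was at 75.5, 77.1, 34.6 and 25.8 CPM in EtOH 1 to 4 and at 10.4, 12.7, 9.87 and 15.2 CPM in EtOH+MBV 1 to 4. The EtOH libraries were all higher, with replicates 1 and 2 above 3 and 4, while the EtOH+MBV libraries lay close together. Akap12 fell 4.43-fold (log2 -2.15 ± 0.29, edgeR adjusted p = 0.00434), with log2 -1.92 without EtOH 1 and -2.08 without EtOH+MBV 1. Krt8 and Krt18 pair to form the keratin filaments of hepatocytes. Krt8 was at 1041, 924, 566 and 428 CPM in EtOH 1 to 4 and at 232, 321, 312 and 346 CPM in EtOH+MBV 1 to 4, and Krt18 was at 524, 499.7, 306 and 261 CPM in the EtOH libraries and at 137, 179, 215 and 217 CPM in the EtOH+MBV libraries. Again EtOH 1 and 2 were highest and no libraries overlapped. Krt8 fell 2.44-fold (log2 -1.29 ± 0.23, edgeR adjusted p = 0.0193, log2 -1.07 without EtOH 1 and -1.18 without EtOH+MBV 1) and Krt18 2.12-fold (log2 -1.09 ± 0.21, edgeR adjusted p = 0.0208, log2 -0.92 without EtOH 1 and -0.96 without EtOH+MBV 1), against PF levels of 152 ± 25.3 and 80.8 ± 16.7 CPM.

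Fhl3, a LIM domain protein of actin-rich structures, and Emp2, a membrane protein that acts on integrins, fell too. Fhl3 was at 9.15, 6.399, 1.88 and 1.999 CPM in the EtOH libraries and at 0.274, 0.402, 1.02 and 1.13 CPM in the EtOH+MBV libraries and had log2 -2.79, -2.28 and -2.51 in the 3 fits. Emp2 was at 35.3, 12.4, 10.4 and 7.61 CPM in the EtOH libraries and at 4.83, 4.49, 3.12 and 4.78 CPM in the EtOH+MBV libraries, and EtOH 1 was its highest library, so that log2 went from -1.94 to -1.23 without EtOH 1 and -2.0 without EtOH+MBV 1. The actin-binding Dbn1 (log2 -1.36, -1.29 and -1.29), the small GTPase Rhoc (-1.28, -0.98 and -1.35) and S1pr3, a receptor of sphingosine 1-phosphate (-1.24, -1.14 and -1.15), are further falls chosen with their values in view. Of 34 actin cytoskeleton and scaffold genes tested 4 fell and 0 rose (median log2 -0.35), where 1.45% of all genes tested fell. Without EtOH 1, 2 fell (median -0.23), and without EtOH+MBV 1, 2 fell (median -0.32). The 4 were Akap12, the actin-binding calponin Cnn3 (log2 -0.37, -0.39 and -0.38), the tropomyosin Tpm4 (-0.79, -0.58 and -0.65) and the non-muscle myosin Myh9 (-0.70, -0.57 and -0.64). Tpm4 and Myh9 did not pass without EtOH 1 (adjusted p = 0.085 and 0.0957) or without EtOH+MBV 1 (adjusted p = 0.0511 and 0.0641).

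Secreted matrix and TGF-beta genes fell in part. Thbs1, a matricellular protein that activates latent TGF-beta, was at 37.2, 18.5, 11.3 and 7.22 CPM in EtOH 1 to 4 and at 2.08, 5.49, 2.99 and 5.15 CPM in EtOH+MBV 1 to 4. It fell 4.76-fold (log2 -2.25 ± 0.43, edgeR adjusted p = 0.0208), with log2 -1.65 without EtOH 1 and -2.03 without EtOH+MBV 1. Tgfb3, a TGF-beta ligand, was at 13.6, 11.7, 8.79 and 6.06 CPM in EtOH 1 to 4 and at 2.91, 4.62, 3.82 and 3.33 CPM in EtOH+MBV 1 to 4 and fell 2.74-fold (log2 -1.46 ± 0.25, edgeR adjusted p = 0.018, log2 -1.27 without EtOH 1 and -1.36 without EtOH+MBV 1). It overlaps Ttll5 on the opposite strand. Adamts9, a protease of the proteoglycan versican, was at 16.6, 17.3, 5.64 and 8.19 CPM in the EtOH libraries and at 3.18, 4.49, 2.87 and 4.398 CPM in the EtOH+MBV libraries, with log2 -1.68, -1.47 and -1.61 in the 3 fits. In each of these 3 genes the groups did not overlap. Of all genes tested 1.45% fell and 1.24% rose with MBV. Of 31 TGF-beta ligands and matricellular targets, 3 fell and 1 rose, with a median log2 of -0.17 (2 fell and 0 rose without EtOH 1, median -0.09, and 2 fell and 1 rose without EtOH+MBV 1, median -0.14). The third fall with all libraries was the matricellular Cyr61 (log2 -2.0, -1.15 and -2.08 in the 3 fits). The rise with all libraries was Inhbe, an inhibin beta chain secreted by hepatocytes, at 16.6, 34.2, 69.9 and 113 CPM in the EtOH libraries and at 203, 125, 137 and 267 CPM in the EtOH+MBV libraries, with log2 1.65 (adjusted p = 0.0474) and 1.35 without EtOH 1 (adjusted p = 0.084) and 1.60 without EtOH+MBV 1 (adjusted p = 0.0688). That without EtOH+MBV 1 was Fn1, fibronectin (log2 0.75, 0.59 and 0.91). Of 29 matrix proteases and inhibitors 3 fell, 2 without EtOH 1 and 2 without EtOH+MBV 1, with medians of -0.34, -0.12 and -0.35, namely Mmp12, Adamts9 and, with all libraries, Adamts4 (log2 -1.19, -1.06 and -0.98). The fibril collagen Col1a1 did not pass, at 52.8, 19.4, 14.5 and 11.4 CPM in the EtOH libraries and at 4.83, 9.11, 9.49 and 11.7 CPM in the EtOH+MBV libraries, with log2 -0.78 without EtOH 1 (adjusted p = 0.226) and -1.29 without EtOH+MBV 1 (adjusted p = 0.106), and 0 of 17 hepatic stellate cell markers passed by edgeR in any of the 3 fits. At an unadjusted p under 0.05, 1 stellate marker was higher and 6 were lower, and DESeq2 called 1 lower. Of all 12901 genes tested, 2723 were under that limit in either direction.

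Of 28 genes of endotoxin sensing and NF-kB feedback, 4 fell with MBV and 0 rose, where 1.45% of all genes tested fell and 1.24% rose. Cd14, the endotoxin co-receptor, was at 85.4, 43.1, 46.9 and 26.6 CPM in EtOH 1 to 4 and at 6.47, 19.96, 12.6 and 17.2 CPM in EtOH+MBV 1 to 4. It fell 3.61-fold (log2 -1.85 ± 0.36, edgeR adjusted p = 0.0208), with log2 -1.46 without EtOH 1 and -1.61 without EtOH+MBV 1, against 4.43 ± 2.03 CPM in PF. Nfkbia and Nfkbiz are an inhibitor and a nuclear cofactor of NF-kB that NF-kB itself induces. Nfkbia was at 37.4, 44.3, 45.98 and 30.2 CPM in EtOH 1 to 4 and at 21.7, 28.3, 27.2 and 25.3 CPM in EtOH+MBV 1 to 4 and fell 1.54-fold (log2 -0.62 ± 0.13, edgeR adjusted p = 0.022, log2 -0.64 without EtOH 1 and -0.55 without EtOH+MBV 1). Nfkbiz was at 23.6, 20.8, 36.5 and 28.6 CPM in the EtOH libraries and at 10.4, 18.4, 12.2 and 13.6 CPM in the EtOH+MBV libraries and fell 2.01-fold (log2 -1.01 ± 0.20, edgeR adjusted p = 0.021, log2 -1.06 without EtOH 1 and -0.89 without EtOH+MBV 1). For these 2 genes EtOH 1 was not the highest EtOH library, and leaving it out did not lower the size of the change. Of the 28 genes 3 fell without EtOH 1 and 3 without EtOH+MBV 1, with medians of -0.25 over all libraries and -0.15 and -0.21 in these fits. The remaining call was Zc3h12a, an RNase that degrades cytokine transcripts, with log2 -0.92 (adjusted p = 0.0468) and -0.84 without EtOH 1 (adjusted p = 0.116) and -1.02 without EtOH+MBV 1 (adjusted p = 0.0508).

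Among cytokines, Ccl9, a macrophage chemokine, was at 226, 105, 151 and 100.4 CPM in the EtOH libraries and at 56.5, 70.8, 60.4 and 87.8 CPM in the EtOH+MBV libraries and fell 2.11-fold (log2 -1.08 ± 0.22, edgeR adjusted p = 0.0212, log2 -0.78 without EtOH 1 and -0.99 without EtOH+MBV 1). Clcf1, a cytokine of the interleukin-6 family, was at 15.2, 8.03, 4.9 and 5.55 CPM in the EtOH libraries and at 1.15, 2.21, 1.85 and 3.204 CPM in the EtOH+MBV libraries and fell with log2 -2.01, -1.55 and -1.80 in the 3 fits. Pim3, a kinase that STAT3 induces, was at 107, 220.4, 252 and 164 CPM in the EtOH libraries and at 85, 92.3, 67.2 and 92.3 CPM in the EtOH+MBV libraries, with EtOH 1 the lowest of its group and no overlap, and its log2 was -1.14, -1.32 and -1.14. PF had 120.5 ± 27 CPM of Pim3, a mean above all EtOH+MBV libraries. Among all genes tested the share that fell was 1.45%. Of 17 chemokines and cytokines tested 3 fell (2 without EtOH 1, 2 without EtOH+MBV 1), with medians of -0.53, -0.34 and -0.46. Beside Ccl9 these were Ccl5 (log2 -2.91, -1.40 and -3.25) and Cxcl10 with all libraries, Cxcl10 without EtOH+MBV 1, and without EtOH 1 the neutrophil chemokine Cxcl1 (-1.17, -1.46 and -1.13). Of 17 monocyte and recruited macrophage markers 2 fell, 1 in either of the reduced fits, with medians of -0.75, -0.32 and -0.68. The summed level of the 19 members was 487 to 768 CPM in EtOH and 446 to 522 CPM in EtOH+MBV. The second gene of that list was Plac8, at 13.7, 6.75, 7.32 and 7.67 CPM in the EtOH libraries and at 4.17, 5.16, 4.84 and 4.78 CPM in the EtOH+MBV libraries, with log2 -0.61 without EtOH 1 (adjusted p = 0.0613) and -0.85 without EtOH+MBV 1 (adjusted p = 0.0534). None of 15 Kupffer cell markers passed by edgeR in any of the 3 fits (3 were higher and 2 lower at an unadjusted p under 0.05, and DESeq2 called 0), with summed levels of 404 to 861 against 498 to 668 CPM. Among all 12901 genes tested, 2.69% passed by edgeR and 2723 were under the unadjusted limit. Adgre1, the macrophage antigen F4/80, was at 30.4, 11.9, 7.32 and 10.1 CPM in the EtOH libraries and at 11.2, 10.8, 7.77 and 8.29 CPM in the EtOH+MBV libraries, with log2 -0.66 (adjusted p = 0.255) and -0.03 without EtOH 1 (adjusted p = 0.96) and -0.75 without EtOH+MBV 1 (adjusted p = 0.239). The share of macrophages in these falls was not tested.

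Redox genes of the NRF2 programme fell in part. Srxn1, the sulfiredoxin that restores oxidised peroxiredoxins, was at 951, 363, 204 and 231 CPM in EtOH 1 to 4 and at 79.2, 124, 103 and 108 CPM in EtOH+MBV 1 to 4. EtOH 1 was far above the other libraries, and the groups did not overlap with or without it. Srxn1 fell 4.22-fold (log2 -2.08 ± 0.36, edgeR adjusted p = 0.0183), with log2 -1.35 without EtOH 1 and -1.97 without EtOH+MBV 1. Txnrd1, the cytosolic thioredoxin reductase, was at 321, 286, 309.9 and 266 CPM in EtOH 1 to 4 and at 146, 224, 184 and 201 CPM in EtOH+MBV 1 to 4, with EtOH libraries close together, and fell 1.56-fold (log2 -0.65 ± 0.12, edgeR adjusted p = 0.0208, log2 -0.60 without EtOH 1 and -0.54 without EtOH+MBV 1). Gsr, the glutathione reductase, was chosen after its values were seen, was at 148, 109.9, 82.2 and 72.9 CPM in the EtOH libraries and at 58.5, 64.9, 56.1 and 48.6 CPM in the EtOH+MBV libraries and had log2 -0.86, -0.62 and -0.87 in the 3 fits. PF levels were 29.9 ± 3.92, 148 ± 16.3 and 53.6 ± 6.53 CPM for Srxn1, Txnrd1 and Gsr. Of 34 NRF2 targets tested 5 fell and 0 rose with a median log2 of -0.31, where 1.45% of all genes tested fell. Without EtOH 1, 2 fell (median -0.46), and without EtOH+MBV 1, 4 fell and 1 rose (median -0.27). The rise was Hmox1, the haem oxygenase, at 16.3, 19.6, 35.98 and 31.9 CPM in the EtOH libraries and at 19.2, 50.5, 90.4 and 146 CPM in the EtOH+MBV libraries, with log2 1.56 (adjusted p = 0.0503) and 1.40 without EtOH 1 (adjusted p = 0.133) and 1.89 without EtOH+MBV 1 (adjusted p = 0.0143). Beside Srxn1 and Txnrd1 the falls were Ugdh, the efflux pump Abcc4 (log2 -1.32, -1.03 and -1.15 with all libraries, without EtOH 1 and without EtOH+MBV 1) and the haem transporter Slc48a1 (-0.63, -0.54 and -0.62). Gclc, the catalytic subunit of glutathione synthesis, did not pass, at 456, 380.2, 281 and 266 CPM in the EtOH libraries and at 132, 249, 187 and 164 CPM in the EtOH+MBV libraries, with log2 -0.92 (adjusted p = 0.0567) and -0.75 without EtOH 1 (adjusted p = 0.158) and -0.79 without EtOH+MBV 1 (adjusted p = 0.0977). Ugdh, which makes UDP-glucuronate, fell with log2 -0.88 (adjusted p = 0.0278), with -0.76 without EtOH 1 (adjusted p = 0.0724) and -0.88 without EtOH+MBV 1 (adjusted p = 0.0402).

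Single interferon genes fell, and in the list of them the change was smaller without EtOH 1. Rsad2, the antiviral enzyme viperin, was at 267, 26.6, 17.1 and 10.2 CPM in EtOH 1 to 4 and at 6.58, 4.69, 2.802 and 4.9 CPM in EtOH+MBV 1 to 4. EtOH 1 was far above the other libraries, but EtOH 2 to 4 also lay above all EtOH+MBV libraries. Rsad2 had log2 -4.08 ± 0.80 (edgeR adjusted p = 0.021), and -1.91 without EtOH 1 (adjusted p = 0.00928) and -4.28 without EtOH+MBV 1 (adjusted p = 0.0346). Gbp2, a guanylate-binding protein induced by interferon gamma, was at 13.02, 5.29, 6.31 and 3.93 CPM in EtOH 1 to 4 and at 1.59, 2.14, 2.67 and 2.199 CPM in EtOH+MBV 1 to 4, and fell with log2 -1.74, -1.26 and -1.61 in the 3 fits. PF had 9.2 ± 1.57 CPM of Rsad2 and 5.04 ± 1.12 CPM of Gbp2, means above all EtOH+MBV libraries. Cxcl10, Ifi44 and Gbp3, also interferon-induced, had log2 -3.40, -3.18 and -2.38. Without EtOH 1 these were -1.88 (adjusted p = 0.0523), -1.35 (adjusted p = 0.126) and -1.01 (adjusted p = 0.0424), and without EtOH+MBV 1 they were -3.34 (adjusted p = 0.0467), -3.43 (adjusted p = 0.0582) and -2.31 (adjusted p = 0.0651). Of 35 interferon response genes 2 fell and 0 rose, where 1.45% of all genes tested fell. The list's median log2 was -1.05, which was -0.39 without EtOH 1 (1 fell) and -1.18 without EtOH+MBV 1 (3 fell). The mean log2 CPM of the list, set against PF, was 1.33 in EtOH 1, -0.67 to -0.41 in the other EtOH libraries and -1.09 to -0.56 in EtOH+MBV. Mmp12, the macrophage elastase, was at 31.4, 4.71, 2.21 and 1.68 CPM in EtOH 1 to 4 and at 0.219, 0.603, 0.382 and 0.4398 CPM in EtOH+MBV 1 to 4, and fell with log2 -2.80 without EtOH 1 (adjusted p = 0.0217) and -4.39 without EtOH+MBV 1 (adjusted p = 0.0346), against -4.62 with all libraries (adjusted p = 0.0201). It overlaps Mmp1b on the opposite strand.

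Promoters of 4 of these genes are shown because each holds the letters TGACTCA, the binding sequence of AP-1, the dimer of Fos and Jun proteins, on either strand. They are the 150 bases before the transcript start from RefSeq (GRCm38.p6), 5′ to 3′ along the gene, with the AP-1 letters in capitals.
Srxn1 (chr2:152105374-152105523, + strand): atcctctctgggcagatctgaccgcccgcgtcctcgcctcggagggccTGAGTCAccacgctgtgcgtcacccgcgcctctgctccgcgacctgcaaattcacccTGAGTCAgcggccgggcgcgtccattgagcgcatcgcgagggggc
Mmp12 (chr9:7347224-7347373, + strand, the second of 2 listed starts): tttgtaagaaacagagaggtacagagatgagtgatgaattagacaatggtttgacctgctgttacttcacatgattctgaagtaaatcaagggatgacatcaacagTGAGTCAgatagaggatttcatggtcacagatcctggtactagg
Gbp2 (chr3:142620513-142620662, + strand): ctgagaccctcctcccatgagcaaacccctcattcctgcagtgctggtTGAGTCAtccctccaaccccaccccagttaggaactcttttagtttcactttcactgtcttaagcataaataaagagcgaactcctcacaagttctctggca
Rsad2 (chr12:26456453-26456602, - strand): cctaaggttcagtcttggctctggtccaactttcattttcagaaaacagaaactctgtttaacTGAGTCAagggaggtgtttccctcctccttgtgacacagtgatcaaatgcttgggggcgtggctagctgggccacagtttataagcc
In the 250 bases before the start, TGACTCA stood in 17 of 144 genes lower with MBV that had a RefSeq promoter (11.8%), in 5 of 131 higher genes (3.82%) and in 417 of 9861 tested genes (4.23%). Of the genes passing in the 3 fits it stood in 5 of 35 lower genes and in 0 of 31 higher genes, and the fifth was Fam214b, named only for this match. The interferon-stimulated response element, searched as a pair of GAAA repeats on either strand, stood in 7.64% of the lower, 0.763% of the higher and 3.25% of all genes. In Gbp2 it began 59 and in Rsad2 120 bases before the start. TGACNNNGC, the core of the antioxidant response element, stood in 16%, 12.2% and 14%. These shares describe letters in a window and say nothing of a factor's binding. Fos, a partner in AP-1, was at 28.5, 14.2, 16.98 and 14.96 CPM in the EtOH libraries and at 3.73, 9.24, 5.35 and 6.66 CPM in the EtOH+MBV libraries, and fell with log2 -1.59 (adjusted p = 0.0412), with -1.30 without EtOH 1 (adjusted p = 0.113) and -1.40 without EtOH+MBV 1 (adjusted p = 0.0715). With all libraries 1.45% of all genes tested fell. Of 28 immediate early genes 2 fell with all libraries, 1 without EtOH 1 and 0 without EtOH+MBV 1, with medians of -0.74, -0.65 and -0.43. The second was Zfp36, a protein that destabilises cytokine transcripts, with log2 -0.82 (adjusted p = 0.0439) and -0.95 without EtOH 1 (adjusted p = 0.0417) and -0.72 without EtOH+MBV 1 (adjusted p = 0.0773).

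Hspa4l and Slc2a1 were further falls. Hspa4l, a nucleotide exchange factor of cytosolic Hsp70, was at 67.8, 55.5, 77.5 and 55.1 CPM in EtOH 1 to 4 and at 30.5, 39.04, 22.5 and 34.5 CPM in EtOH+MBV 1 to 4. It fell 2.02-fold (log2 -1.02 ± 0.15, edgeR adjusted p = 0.0076, log2 -0.98 without EtOH 1 and -1.0 without EtOH+MBV 1), with an adjusted p of at most 0.0183 whichever single library was left out. The share of all genes tested that fell was 1.45%. Of 25 cytosolic heat shock chaperones 2 fell, 1 without EtOH 1 and 2 without EtOH+MBV 1, with medians of -0.18, -0.31 and -0.20. The second was Hsp90aa1, an inducible Hsp90, with log2 -0.87 (adjusted p = 0.0315) and -0.85 without EtOH 1 (adjusted p = 0.0707) and -0.92 without EtOH+MBV 1 (adjusted p = 0.0389). Slc2a1, the glucose transporter Glut1, was at 67.04, 29.8, 41.95 and 26.4 CPM in the EtOH libraries and at 12.9, 17.5, 13.1 and 18.9 CPM in the EtOH+MBV libraries, and fell 2.65-fold (log2 -1.41 ± 0.25, edgeR adjusted p = 0.0193, log2 -1.06 without EtOH 1 and -1.33 without EtOH+MBV 1). Vdr, the vitamin D receptor, was at 3.05, 1.69, 0.9398 and 0.709 CPM in the EtOH libraries and at 0.219, 0.134, 0 and 0.126 CPM in the EtOH+MBV libraries, with 1 EtOH+MBV library at 0, and passed with log2 -3.65, -3.11 and -4.12 in the 3 fits. Map3k13, a kinase of the JNK pathway, was at 13.02, 35.9, 16.6 and 8.84 CPM in the EtOH libraries and at 10.2, 5.96, 4.39 and 5.28 CPM in the EtOH+MBV libraries. EtOH+MBV 1 overlapped EtOH 4, and Map3k13 fell with log2 -1.52, -1.65 and -1.84. PF had 23.9 ± 5.13 CPM of Map3k13, so this fall led away from PF.

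The change of the proliferation list was smaller without EtOH 1. Of 36 cell cycle and replication genes 7 fell, where 1.45% of all genes tested fell. The list's median log2 was -1.97, which was -0.40 without EtOH 1 (1 fell) and -2.03 without EtOH+MBV 1 (2 fell). The list level against PF was 2.44 in EtOH 1, -0.57 to 0.27 in EtOH 2 to 4 and -0.80 to -0.33 in EtOH+MBV. Mki67, the Ki-67 antigen of dividing cells, was at 32.04, 1.803, 1.75 and 1.03 CPM in the EtOH libraries and at 1.04, 0.737, 0.509 and 0.691 CPM in the EtOH+MBV libraries, with log2 -3.61 (adjusted p = 0.0468) and -1.01 without EtOH 1 (adjusted p = 0.239) and -3.83 without EtOH+MBV 1 (adjusted p = 0.0688). Top2a, the topoisomerase of dividing cells, had log2 -3.41 (adjusted p = 0.0347) and -1.37 without EtOH 1 (adjusted p = 0.0957) and -3.28 without EtOH+MBV 1 (adjusted p = 0.0663). Mcm6, of the replicative helicase, did not pass (log2 -2.59, adjusted p = 0.0528), with -0.86 without EtOH 1 (adjusted p = 0.24) and -2.72 without EtOH+MBV 1 (adjusted p = 0.0735). Hmgb2, a chromatin protein of dividing cells, was at 30.1, 17.7, 10.6 and 12.7 CPM in the EtOH libraries and at 6.42, 5.69, 8.47 and 5.403 CPM in the EtOH+MBV libraries, and was the gene of this list that passed without EtOH 1, with log2 -1.46, -1.07 and -1.45 in the 3 fits. Of 25 cholesterol synthesis genes 3 fell (0 without EtOH 1, 1 without EtOH+MBV 1) with medians of -0.34, -0.42 and -0.45, so the median was not smaller in size in the fits with fewer calls. Of these, Insig1, which retains the sterol sensor in the endoplasmic reticulum, had log2 -1.19 (adjusted p = 0.0445) and -1.05 without EtOH 1 (adjusted p = 0.114) and -1.25 without EtOH+MBV 1 (adjusted p = 0.0583).

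Several lists of hepatocyte function held no gene that passed by edgeR in any of the 3 fits. They were 0 of 39 nuclear-encoded oxidative phosphorylation genes (median log2 0.08 with all libraries, 0.00 without EtOH 1 and 0.03 without EtOH+MBV 1), 0 of 59 cytosolic ribosomal proteins (-0.10, -0.13 and -0.08), 0 of 35 fatty acid oxidation and PPARA targets (0.24, 0.07 and 0.17), 0 of 21 pericentral Wnt targets (0.22, 0.06 and 0.18) and 0 of 21 male-biased liver genes (0.75, 0.63 and 0.38). Over all genes tested 2.69% passed with all libraries and 0.762% without EtOH 1, so 0 in lists of this size is near those shares. At an unadjusted p under 0.05, 10 of the 21 male-biased genes were higher and 0 lower, and DESeq2 called 2 higher. Of all 12901 genes tested, 2723 were under that unadjusted limit in either direction. The same limit gave 0 oxidative phosphorylation genes, 4 lower ribosomal proteins, 1 lower fatty acid oxidation gene, and 4 higher and 1 lower pericentral genes, and DESeq2 called 2 ribosomal proteins lower and 0 in the other 3 lists. The mean of the male-biased list against PF was -4.61 in EtOH 1, -3.13 to -2.38 in the other EtOH libraries, -1.06 in EtOH+MBV 1 and -2.64 to -2.43 in EtOH+MBV 2 to 4, so each group had 1 library far from the others and in opposite directions from its group. Without both the list's median was 0.08. Fgf21, a hepatokine of ethanol-fed liver, was at 2.71, 8.55, 33.2 and 75 CPM in the EtOH libraries and at 40.4, 39.1, 24.1 and 68.2 CPM in the EtOH+MBV libraries, with log2 0.53 (adjusted p = 0.684), 0.15 without EtOH 1 and 0.56 without EtOH+MBV 1. Of 25 acute phase genes 1 rose, 0 without EtOH 1 and 1 without EtOH+MBV 1, with medians of 0.46, 0.27 and 0.70. It was Apcs, the serum amyloid P component, at 81.2, 67.4, 118 and 111 CPM in the EtOH libraries and at 103, 166, 293 and 215 CPM in the EtOH+MBV libraries, with log2 1.04 (adjusted p = 0.0347) and 0.98 without EtOH 1 (adjusted p = 0.0935) and 1.25 without EtOH+MBV 1 (adjusted p = 0.0143).

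**Figure D4:**
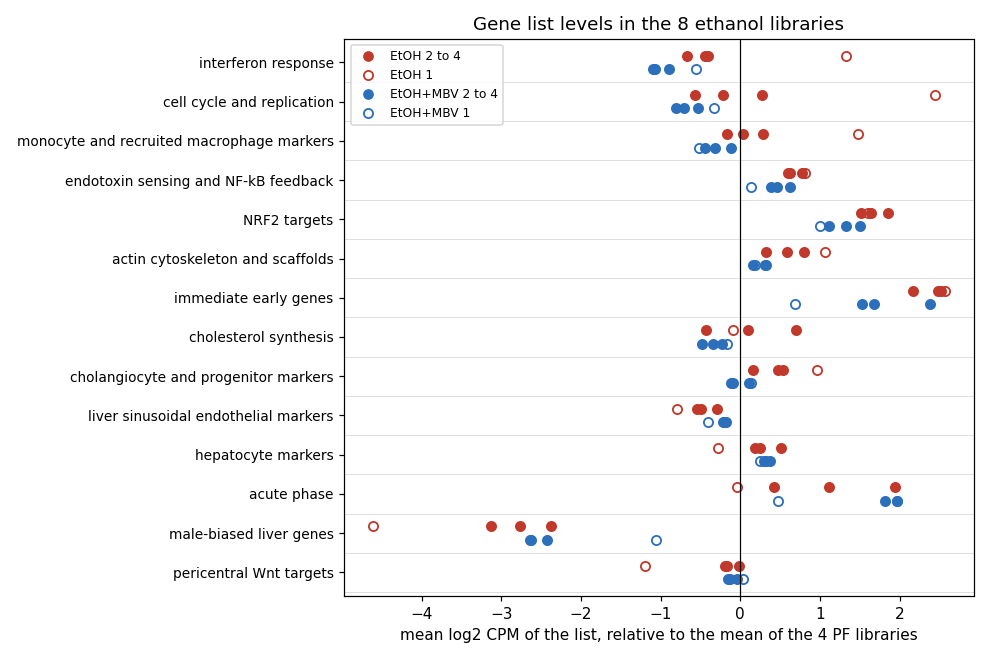
Each point is the mean log2 CPM of a gene list in 1 of the 8 ethanol libraries, against the 4 PF libraries' mean (vertical line), with open symbols for EtOH 1 and EtOH+MBV 1. EtOH 1 stands apart at 1.33 for interferon response and at -4.61 for male-biased genes, where EtOH+MBV 1 stands apart on the other side at -1.06.

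Among markers of other cells, the 18 biliary and progenitor markers summed to 773 to 1672 CPM in EtOH, 460 to 644 CPM in EtOH+MBV and 295 to 452 CPM in PF, and 2 of 13 tested fell in each of the 3 fits. These 2 were Krt8 and Krt18, which hepatocytes also express. Without them the list summed to 107, 93.1, 91.7 and 83.9 CPM in EtOH 1 to 4 and to 91.6, 94.2, 77.2 and 80.8 CPM in EtOH+MBV 1 to 4, so the groups overlapped. Krt19, a keratin of bile duct cells and no part of the naming rule, was at 0.756 to 2.15 CPM in EtOH and 0.251 to 1.34 CPM in EtOH+MBV. None of 7 neutrophil, 5 T and NK cell and 4 B cell markers that could be tested passed by edgeR or DESeq2, and 0 had an unadjusted p under 0.05 by edgeR, and the summed levels were 3.61 to 15.9 against 3.84 to 12.7 CPM, 9.58 to 14.1 against 10.9 to 13.2 CPM and 1.14 to 3.87 against 1.08 to 2.41 CPM. Over all genes tested 2.69% passed by edgeR, so 0 in lists this small is near that share. Of the defining markers, Mpo of neutrophils was at 0 in all 8 libraries, as were 4 haemoglobin genes and 11 of 17 adipocyte and pancreas genes. Rpl26 and Eno1, which every cell uses, were listed at 0 as well, and the erythroid Alas2 was at 3.58 to 31.3 CPM in EtOH and 26.0 to 96.3 CPM in EtOH+MBV, so a listed 0 does not show that the cells were absent. MHC class II genes, which dendritic cells, macrophages and B cells express, had 1 fall in 8 (0 without EtOH 1, 1 without EtOH+MBV 1), with medians of -0.73, -0.47 and -0.83. It was H2-Aa, at 20.96, 22.6, 13.4 and 12.1 CPM in the EtOH libraries and at 10.6, 7.701, 7.77 and 6.03 CPM in the EtOH+MBV libraries, with log2 -0.99 without EtOH 1 (adjusted p = 0.0954) and -1.27 without EtOH+MBV 1 (adjusted p = 0.0324). Over the 61 lists examined, 35 had a call with all libraries, 18 without EtOH 1 and 32 without EtOH+MBV 1. With 2.69% of all genes passing, a list can hold a call at that share alone. The number of lists so expected was not counted, and the lists were chosen with earlier results known.

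The same MBV treatment was compared between the diets. In pair-fed mice 230 of 12901 genes passed (1.78%), and the difference of the MBV effect between the diets passed for 530 genes (4.11%), with 531 without EtOH 1 and 711 without EtOH+MBV 1. Of the 85 genes passing in the 3 fits, 1 also passed in pair-fed mice, and the difference between the diets passed for 59 (57 without EtOH 1 and 58 without EtOH+MBV 1). Of the 347 genes 156 had such a difference (145 and 158 in those fits), and 7 passed in pair-fed mice, 3 of them in the same direction. Both contrasts use the EtOH and EtOH+MBV libraries, so the difference is not separate evidence for the change on ethanol. Kit changed by -0.31 in pair-fed mice (adjusted p = 0.403), a difference of 1.74, adjusted p = 0.00607, with 1.62 without EtOH 1 and 1.68 without EtOH+MBV 1. Akap12 changed by 0.74 (adjusted p = 0.213), a difference of -2.89, adjusted p = 0.00468, with -2.66 without EtOH 1 and -2.82 without EtOH+MBV 1. Srxn1 changed by 0.79 (adjusted p = 0.265), a difference of -2.87, adjusted p = 0.0121, with -2.14 without EtOH 1 and -2.76 without EtOH+MBV 1. For these 3 genes the pair-fed value was small or of opposite sign and did not pass.

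**Figure D5:**
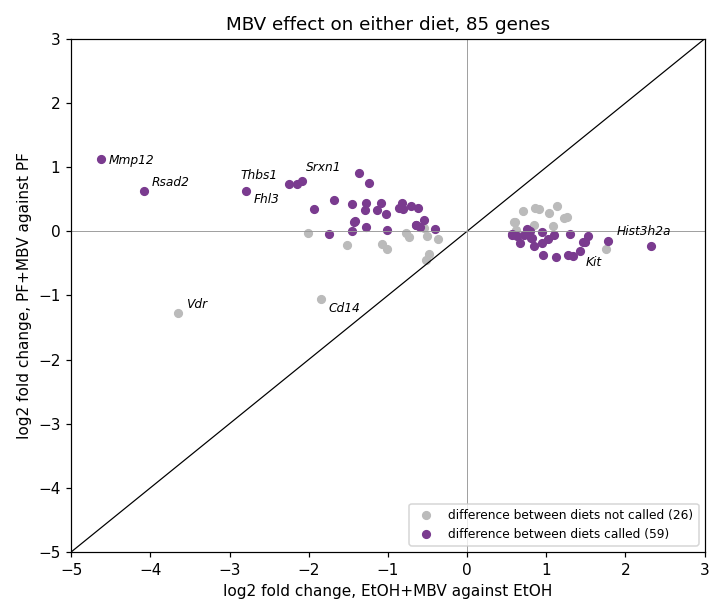
Each point is 1 of the 85 genes called with all libraries, without EtOH 1 and without EtOH+MBV 1, with its MBV log2 fold change on the ethanol diet (horizontal) and on the pair-fed diet (vertical). The 59 points for which the difference between diets passed lie away from the diagonal of equal change, on the left for genes such as Mmp12 and Rsad2 and on the right for Hist3h2a and Kit.

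Some differences between the diets came mostly or in part from the pair-fed side. Gclc had 137 ± 50.9 CPM in PF libraries and 389.7 ± 81.97 CPM in PF+MBV libraries, a rise of 1.51 (adjusted p = 0.00906). On ethanol it changed by -0.92, which did not pass, though all EtOH libraries lay above all EtOH+MBV libraries. Both sides thus enter the difference for Gclc. The difference was -2.43, adjusted p = 0.00468, with -2.26 without EtOH 1 and -2.30 without EtOH+MBV 1. Tubb2a, a beta tubulin, rose by 2.16 in pair-fed mice (adjusted p = 2.46e-04) and was at 222, 149, 200 and 150.3 CPM in the EtOH libraries and at 93.5, 133, 190.5 and 187 CPM in the EtOH+MBV libraries on ethanol, which did not pass (log2 -0.26, adjusted p = 0.565), with log2 -0.13 without EtOH 1 and -0.08 without EtOH+MBV 1. The difference for Tubb2a was -2.42, adjusted p = 0.00468, with -2.29 without EtOH 1 and -2.24 without EtOH+MBV 1. Onecut1, a transcription factor of hepatocytes, fell from 53.6 ± 20.8 to 5.92 ± 0.984 CPM in pair-fed mice (log2 -3.18, adjusted p = 1.28e-04) and was at 12.7, 16.5, 13.8 and 14.3 CPM in the EtOH libraries and at 26.8, 12.7, 9.87 and 12.2 CPM in the EtOH+MBV libraries on ethanol (log2 0.11, adjusted p = 0.872). EtOH+MBV 1 was the highest of those 8 libraries for Onecut1, and without it the change on ethanol was -0.30 and the difference 2.88. Id2, an inhibitor of helix-loop-helix factors, changed by -1.23 in pair-fed mice (adjusted p = 1.29e-04) and by 0.20 on ethanol (adjusted p = 0.394), a difference of 1.43, adjusted p = 0.00458, with 1.51 without EtOH 1 and 1.40 without EtOH+MBV 1.

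In GENCODE vM21 (GRCm38, the mm10 build), Hist3h2a lies on chromosome 11 from 58954685 to 58956830, Hexim1 on chromosome 11 from 103116231 to 103119725, the Clec14a locus at chromosome 12 from 58264720 to 58269290 and Kit at chromosome 5 from 75574916 to 75656722. Akap12 lies on chromosome 10 from 4266380 to 4359470, Krt8 on chromosome 15 from 101996698 to 102004482, Thbs1 on chromosome 2 from 118111876 to 118127133 and Nfkbia on chromosome 12 from 55489410 to 55492647. Srxn1 lies on chromosome 2 from 152105516 to 152111376, Txnrd1 on chromosome 10 from 82833951 to 82897712, Rsad2 on chromosome 12 from 26442746 to 26456452, Mmp12 on chromosome 9 from 7344381 to 7369499 and Hspa4l on chromosome 3 from 40744495 to 40796103. All are protein-coding genes.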

How the data were processed

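The values are count data: reads per gene for 24411 gene symbols in 1 table per library, used as the authors deposited them and not normalized. Trimmomatic, STAR and the mouse build mm10 are named, per the submitters' processing notes. Neither versions and settings nor the gene annotation are stated. The unstranded count column was taken, since both stranded columns held nearly equal shares. The 4 categories that are not genes stayed out of the fits: unmapped reads made up 11.57% to 19.89%, reads at several places 4.571% to 7.583%, reads without a feature 9.397% to 10.87% and ambiguous reads 1.348% to 1.693%.

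Genes were kept by filterByExpr with a minimum count of 10, and libraries were scaled by TMM (0.863 to 1.269). The quasi-likelihood model of edgeR 4.0.16 (R 4.3.3) took all 16 libraries, with 1 mean for each group. Benjamini-Hochberg adjustment ran over all genes tested, with 0.05 as the limit. List levels are means of log2 CPM with a prior count of 2. Alternatives were DESeq2 1.42.0, limma 3.58.1 (voom, with and without sample weights), other scalings, no filter, a replicate block, the 8 libraries of a diet alone, the sum of the stranded columns and leaving out each library. Read shares were compared by exact permutation tests. The fit was tested on simulated data. RefSeq promoters matched 9861 and GENCODE vM21 symbols 12467 of the 12901 genes tested. Reads that map to several places were not counted per gene.

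The genes and the 61 lists (1450 genes, 1295 tested) were chosen with earlier results of these data known. Genes are named by a rule: the 15 largest rises and 15 largest falls among genes passing with all libraries, without EtOH 1 and without EtOH+MBV 1 at 1 CPM or more, up to 5 genes per list, a fixed set of genes known from earlier results, up to 6 genes per direction for the difference between diets, and up to 12 genes per direction in which EtOH 1 or EtOH+MBV 1 lies apart at 5 CPM or more. Some genes named by this rule are not reported here, and predicted gene models are not named. Mepce, Flcn, Med20, Dbn1, Rhoc, S1pr3, Gsr, Mki67, Cxcl1, Fn1, Cep85, Fam214b, Krt19 and Malat1 lie outside this rule and were chosen with their values in view.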

Additional observations from a re-analysis of the deposited data

Results flagged for a closer look

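A library was set apart when its gap to the nearest of the other 3 took up more of its group's range than Dixon's 95% limit for 4 samples allows. Of 330 groups of 4 examined (104 named genes and 61 lists, in EtOH and EtOH+MBV), 21 of genes and 14 of lists met it, and chance flags about 1 in 20 groups. Part of these genes were named because EtOH 1 or EtOH+MBV 1 lay apart in them, so the number met cannot be read against that rate. EtOH 1 was high for Gbp3 at 28.8 CPM, Rsad2 at 267 CPM, Cxcl10 at 21.1 CPM, Ifi44 at 16.02 CPM, Mmp12 at 31.4 CPM, Plac8 at 13.7 CPM, Top2a at 23.1 CPM, Mki67 at 32.04 CPM, Mcm6 at 36.6 CPM, Stmn1 at 25.6 CPM, Cyp2a4 at 127 CPM, Lpl at 91.3 CPM and Ccl5 at 3.05 CPM. EtOH+MBV 1 was high for Stmn1 at 3.35 CPM, Onecut1 at 26.8 CPM, Cyp7a1 at 117 CPM, Selenbp2 at 388 CPM and Mup3 at 3276 CPM. EtOH+MBV 1 was low for Dbn1 at 4.55 CPM. EtOH 3 was high for Saa2 at 891 CPM. EtOH+MBV 2 was high for Abcc4 at 60.7 CPM. Among list levels (mean log2 CPM against PF), EtOH 1 lay apart for interferon response (1.33), guanylate-binding proteins and immunity-related GTPases (0.79), pericentral Wnt targets (-1.20) and hepatocyte transcription factors and nuclear receptors (-0.63). Among list levels (mean log2 CPM against PF), EtOH+MBV 1 lay apart for acute phase (0.47), liver sinusoidal endothelial markers (-0.40), TGF-beta ligands and matricellular targets (0.11), alcohol and aldehyde metabolism (-0.12), male-biased liver genes (-1.06), female-biased liver genes (0.84), gluconeogenesis and glycogen (-0.03), methionine and one-carbon metabolism (0.34), metallothionein and iron (0.45) and nuclear long RNAs and RNA quality (0.02). 

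The effect of MBV differed between the diets for 57 of the named genes, by edgeR's test of the difference itself (adjusted p under 0.05), and 52 of them passed also without EtOH 1 and 52 without EtOH+MBV 1. Values are the log2 change with MBV on ethanol minus that in pair-fed mice. They were positive for Selenbp2 (3.72), Onecut1 (3.29), Hist3h2a (2.55), Bbs10 (1.93), Kit (1.74), Thap2 (1.73), Hist2h2be (1.70), Neat1 (1.64), Zfp882 (1.60), Clec14a (1.53), Id2 (1.43), Apoc2 (1.37), Cep97 (1.33), Ushbp1 (1.31), Snhg1 (1.27), Hexim1 (1.16), Adh7 (1.15), Zfp874b (1.14), Med20 (1.07), Aasdh (0.96) and Mepce (0.92). They were negative for Mmp12 (-5.74), Rsad2 (-4.70), Cxcl10 (-4.10), Fhl3 (-3.42), Thbs1 (-2.99), Akap12 (-2.89), Srxn1 (-2.87), Gclc (-2.43), Fos (-2.42), Tubb2a (-2.42), Adamts4 (-2.32), Emp2 (-2.29), Insig1 (-2.29), Dbn1 (-2.26), Adamts9 (-2.16), S1pr3 (-2.0), Abcc4 (-1.94), Tgfb3 (-1.89), Rhoc (-1.73), Gbp2 (-1.69), Krt8 (-1.62), Slc2a1 (-1.57), Krt18 (-1.53), Pim3 (-1.47), Hmgb2 (-1.47), Ugdh (-1.44), Zfp36 (-1.32), Hspa4l (-1.29), Gsr (-1.21), Tpm4 (-1.15), Fam214b (-1.15), Cep85 (-1.10), Hsp90aa1 (-1.03), Nfkbia (-0.99), Slc48a1 (-0.86) and Txnrd1 (-0.75). Without EtOH 1 the value moved by over 1.5 times in fold for Mmp12 (-3.92), Rsad2 (-2.54), Cxcl10 (-2.58), Thbs1 (-2.39), Srxn1 (-2.14) and Emp2 (-1.58). Without EtOH+MBV 1 it moved as far for Selenbp2 (2.27). The differences that did not pass without EtOH 1, with edgeR adjusted p, were Selenbp2 (0.0548), Neat1 (0.0553), Abcc4 (0.0626), Hmgb2 (0.0596) and Hsp90aa1 (0.0565), and those without EtOH+MBV 1 were Selenbp2 (0.0552), Apoc2 (0.054), Abcc4 (0.0536), Gbp2 (0.0559) and Hmgb2 (0.0585).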

How the results depend on the processing

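The number of genes called with MBV on ethanol, 347, lay between 8 and 1169 when single libraries were left out. It was 180 without EtOH 1 and EtOH+MBV 1 together, 905 by DESeq2, 143 by limma voom with sample quality weights and 0 with the 8 ethanol libraries alone. A replicate block gave 205 genes, 189 of them among the 347. Same-numbered libraries of the groups correlated at -0.08 to 0.08 in their deviations, and not every sample correlated best with its own number. The labels state no pairing, and correlations among so few libraries cannot exclude one. Whether the numbers pair the samples is therefore not known. In pair-fed mice 230 genes passed, 45 to 689 when single libraries were left out, 665 by DESeq2, 2494 with sample quality weights and 1119 with the 8 pair-fed libraries alone. For the difference between the diets 530 passed, 168 to 1088 when single libraries were left out, 887 without EtOH 1 and EtOH+MBV 1, 1113 by DESeq2 and 1410 with sample quality weights. Other scalings, no filter on low counts, limma voom and the sum of the stranded columns moved each count they were applied to by less than 1.5 times.

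Of the 80 named genes that passed with all libraries, 51 passed without EtOH 1, 36 without EtOH 2, 77 without EtOH 3, 80 without EtOH 4, 61 without EtOH+MBV 1, 55 without EtOH+MBV 2, 7 without EtOH+MBV 3 and 53 without EtOH+MBV 4, and 0 changed sign under any alternative. The alternatives use the libraries in which these genes were chosen, so the kept signs are not separate support. 3 genes that did not pass changed sign. Cyp7a1 (log2 1.41) was at -0.82 without EtOH+MBV 1, -0.92 without EtOH 1 and EtOH+MBV 1, and -0.36 with sample quality weights, and lay between -0.82 and 1.96 when single libraries were left out. Onecut1 (0.11) was at -0.30, -0.36 and -0.26 in the same order, with -0.30 to 0.28 when single libraries were left out, and Tubb2a (-0.26) at 0.03 without both. The difference in the share of unmapped reads (-0.1175 percentage points) lay between -0.499 and 0.265 when single libraries were left out, above 0 without EtOH 1 (0.265) and without EtOH+MBV 4 (0.214). Beyond the libraries left out, the cause was not tested. The ethanol-fed libraries held 15912023 to 18240144 counts, EtOH 1 16302158, and detection against depth was not tested.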

Other observations

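Some single genes of liver metabolism passed with all libraries outside the groups described above. Adh7, the class IV alcohol dehydrogenase, was at 5.62, 8.202, 13.2 and 11.3 CPM in EtOH 1 to 4 and at 15.5, 14.9, 16.5 and 18.2 CPM in EtOH+MBV 1 to 4, and rose with log2 0.78 (edgeR adjusted p = 0.0461), with 0.59 without EtOH 1 (adjusted p = 0.0906) and 0.80 without EtOH+MBV 1 (adjusted p = 0.0587). Of 13 genes of alcohol and aldehyde metabolism tested it was the call with all libraries, and 0 passed in either reduced fit, with medians of 0.05, -0.05 and -0.07. With all libraries 1.24% of all genes tested rose. Nr1h3, the liver X receptor alpha that senses oxysterols, was at 44.4, 48.9, 51.5 and 48.8 CPM in EtOH 1 to 4 and at 80.2, 60.9, 66.2 and 57.99 CPM in EtOH+MBV 1 to 4, with no overlap and the EtOH libraries close together. It rose with log2 0.46 (adjusted p = 0.0273), with 0.42 without EtOH 1 (adjusted p = 0.062) and 0.35 without EtOH+MBV 1 (adjusted p = 0.0378). Apoc2, the apolipoprotein that activates lipoprotein lipase, was at 1.21, 2.56, 3.42 and 2.45 CPM in the EtOH libraries and at 5.54, 5.49, 3.95 and 4.46 CPM in the EtOH+MBV libraries, with log2 1.03 (adjusted p = 0.0477) and 0.80 without EtOH 1 (adjusted p = 0.104) and 0.96 without EtOH+MBV 1 (adjusted p = 0.0767). Cyp2a4, a female-biased steroid hydroxylase with the near-identical neighbour Cyp2a5, so that its level is uncertain, was at 127, 11.4, 19.5 and 26.7 CPM in the EtOH libraries and at 0.384, 9.38, 2.67 and 3.14 CPM in the EtOH+MBV libraries, with log2 -3.60 (adjusted p = 0.03) and -2.31 without EtOH 1 (adjusted p = 0.0906) and -3.20 without EtOH+MBV 1 (adjusted p = 0.0397).

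The read shares of the libraries did not separate the groups. Unmapped reads made up 12.68% ± 0.897 of EtOH and 12.57% ± 0.901 of EtOH+MBV libraries (SD, n = 4 each), which an exact 2-sided permutation test put at p = 0.857. Reads outside gene features made up 10.36% ± 0.349 and 9.834% ± 0.235, and the 10 most counted genes held 17.28% ± 1.35 and 18.84% ± 0.886. For both the exact permutation p was 0.0857, with adjusted p = 0.143 over 5 such shares, where 0.0286 is the smallest p that 4 against 4 libraries can give. The difference of EtOH+MBV minus EtOH was -0.529 percentage points for reads outside features (-0.359 without EtOH 1, -0.534 without EtOH+MBV 1) and 1.56 for the 10 most counted genes (1.32 and 2).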
